A study of Mus musculus with 11 samples.

Results

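*Cdh5*, *Pecam1*, *Esam*, *Emcn*, *Plvap*, *Icam2*, *Ecscr*, *Cd93*, and *Robo4* encode proteins of the endothelial junction and cell surface, and their transcript levels were examined in HaCa4 cancer cells sorted from co-culture with lymphatic endothelial cells (LECs). The genes were picked by symbol, and all 9 of them were found among the 290 genes listed for HaCa4 cells. None of the 9 was among the 191 genes listed for LECs, so their level in the LEC libraries was not analysed here. HaCa4 is a mouse skin squamous carcinoma line that carries an oncogenic H-Ras mutation. The LECs are a conditionally immortal mouse dermal line, imLEC, derived from Immortomouse tissue and therefore carrying thermolabile SV40 large T antigen, and a pair of clones of it was used interchangeably. HaCa4 control libraries (n = 2) came from HaCa4 cells grown alone. HaCa4-sorted libraries (n = 3) came from HaCa4 cells that had shared a dish with LECs for 24 h and were then isolated by FACS, in which the dye CFSE marked the cancer cells and an antibody to CD31 marked the LECs, with dead cells and doublets excluded. CD31 is the protein product of *Pecam1*, one of the 9 genes. The sources used here do not state clearly whether control cells were dyed or passed through the sorter. If they were not, effects of co-culture and of sorting cannot be told apart. The sources also do not say whether replicates were separate cultures, and p-values therefore measure only the spread between these libraries. In bulk RNA, more cells of a type and more RNA per cell cannot be told apart either.

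Endothelial cells hold together through adherens junctions built on VE-cadherin, the product of *Cdh5*, and through immunoglobulin-family adhesion molecules such as those encoded by *Pecam1* and *Esam*. Their free surface carries sialomucins such as endomucin, ligands for leukocyte integrins, and receptors that steer vessel growth and permeability. Carcinoma cells of epidermal origin rely on E-cadherin and desmosomes, and the 9 genes are used as markers of endothelium. The endothelial promoters of such genes are known to be bound by ETS-family factors, whose core letters are GGAA.

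The promoter windows of *Emcn* and *Robo4* are shown because the levels of both genes had the same order across the sorted libraries, and because they were the only members with a window in the RefSeq promoter table used here. Each window runs from 250 bases before to 50 bases after the annotated start, on the plus strand of GRCm38.p6, at chr3:137340828-137341127 for *Emcn* and chr9:37401722-37402021 for *Robo4*. Capitals mark GGAA on either strand, so that TTCC is the same core on the opposite strand.
Emcn: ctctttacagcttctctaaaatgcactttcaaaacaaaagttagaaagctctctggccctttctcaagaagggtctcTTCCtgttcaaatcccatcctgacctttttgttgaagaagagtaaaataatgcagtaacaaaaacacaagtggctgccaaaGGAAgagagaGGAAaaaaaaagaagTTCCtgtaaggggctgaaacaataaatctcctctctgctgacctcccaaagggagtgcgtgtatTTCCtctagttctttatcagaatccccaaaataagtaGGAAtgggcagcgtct
Robo4: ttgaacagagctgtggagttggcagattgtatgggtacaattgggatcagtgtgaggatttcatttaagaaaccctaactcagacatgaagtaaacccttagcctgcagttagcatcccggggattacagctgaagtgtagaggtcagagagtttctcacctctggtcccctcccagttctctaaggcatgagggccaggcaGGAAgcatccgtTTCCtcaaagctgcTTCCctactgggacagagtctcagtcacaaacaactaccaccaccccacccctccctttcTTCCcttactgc
The *Emcn* window held 6 such cores and the *Robo4* window 4. Of 32851 windows of this length, 96.0% held at least 1 core, 15.7% held at least 6, and 46.3% held at least 4. Matches of ACAAT on either strand, the core of SOX factors, numbered 1 in *Emcn* and 2 in *Robo4*, and 31.0% of all windows held at least 1 and 7.98% at least 2. GATA on either strand was found 1 time in *Emcn* and was not among the letters of the *Robo4* window, whereas 57.9% of all windows held it. No match overlapped one of another motif. These counts describe letters in the windows only.

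In summed level, the 9 genes reached 1.5 and 0.53 TPM (transcript abundance corrected for gene length and scaled to a fixed total) in HaCa4 control replicates 1 and 2. The sums were 13.9, 216, and 94.9 TPM in HaCa4-sorted replicates 1, 2, and 3, so both controls lay below every sorted library while the sorted libraries themselves spread widely. Of the 9 genes, 5 reached 1 TPM in sorted replicate 1 and all 9 did so in replicates 2 and 3. None reached 1 TPM in a control. *Emcn*, *Cdh5*, *Icam2*, and *Robo4* were listed at 0 in both controls. Relative to the summed TPM of all 290 listed genes, the 9 genes made up 0.00657% and 0.00222% in control replicates 1 and 2 and 0.0703%, 1.18%, and 0.459% in sorted replicates 1, 2, and 3.

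**Figure D1:**
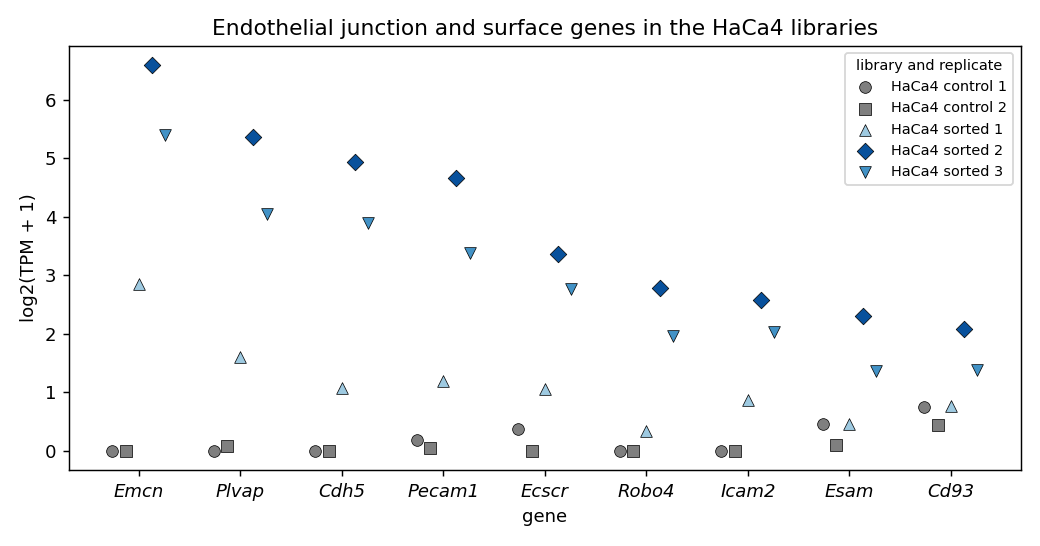
Level of each gene in each HaCa4 library as log2(TPM + 1), with genes on the horizontal axis in order of their mean TPM in HaCa4-sorted and 1 point for each library. The 2 control libraries lie near the bottom for every gene, sorted replicate 2 is highest and sorted replicate 1 is the lowest sorted library for each gene, and in *Esam* and *Cd93* sorted replicate 1 meets or nearly meets the controls.

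Of the junctional adhesion genes, *Cdh5*, the cadherin of endothelial adherens junctions, was listed at 0 in both controls. Its level in sorted replicates 1, 2, and 3 was 1.11, 29.7, and 13.8 TPM (14.9 ± 14.3, mean ± SD, n = 3). All sorted libraries were thus above the controls, but the standard deviation was nearly as large as the mean. On the log2(TPM + 1) scale the difference was 3.3 (SE 1.10), which missed the threshold (limma, adjusted p = 0.0543).

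*Pecam1*, the homophilic adhesion molecule CD31 and the antigen used to mark LECs in the sort, measured 0.14 and 0.04 TPM in the controls. In the sorted libraries it measured 1.29, 24.3, and 9.38 TPM (11.6 ± 11.6, SD, n = 3). The groups did not overlap. The sorted cells had been taken as HaCa4 by CFSE, and the source of the *Pecam1* transcript in them was not tested. The log2 difference of 2.95 (SE 0.98) had an adjusted p of 0.0543 in limma and also missed the threshold.

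*Esam*, an immunoglobulin-family molecule of endothelial tight junctions, had control levels of 0.38 and 0.07 TPM. The sorted levels were 0.38, 3.95, and 1.59 TPM. Sorted replicate 1 equalled the first control to both deposited decimals, and *Esam* was the only member whose groups overlapped. The log2 difference was 1.10 (SE 0.59, limma adjusted p = 0.13), with a 95% interval of -0.33 to 2.53.

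Among the sialomucins, *Emcn* had the highest level of the 9 genes in every sorted library. *Emcn* encodes endomucin, a heavily glycosylated protein of the luminal surface that limits leukocyte attachment. It was listed at 0 in both controls and measured 6.24, 95.1, and 41.3 TPM in the sorted libraries (47.5 ± 44.7, SD, n = 3). *Emcn* rose, with a log2 difference of 4.95 (SE 1.03, limma adjusted p = 0.0308) that was the largest of all 290 listed genes.

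*Ecscr*, a smaller surface sialomucin of endothelial cells with a role in migration, measured 0.29 and 0 TPM in the controls. Its sorted values were 1.07, 9.28, and 5.83 TPM (5.39 ± 4.12, SD, n = 3), all above both controls. The log2 difference of 2.21 (SE 0.73) missed the threshold (limma, adjusted p = 0.0543).

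*Plvap*, which forms the diaphragms of endothelial caveolae and fenestrae, was the only other member past the thresholds. The controls held 0 and 0.06 TPM of *Plvap* and the sorted libraries 2.03, 40.1, and 15.4 TPM (19.2 ± 19.3, SD, n = 3). The groups were clear of each other, and *Plvap* ranked second in level in each sorted library. Its log2 difference was 3.62 (SE 1.05, limma adjusted p = 0.0435), the next largest after that of *Emcn*.

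*Icam2*, a constitutive endothelial ligand of the leukocyte integrin LFA-1, was listed at 0 in each control. The sorted libraries held 0.82, 4.97, and 3.10 TPM (2.96 ± 2.08, SD, n = 3). Every sorted library was above the controls, and the log2 difference of 1.83 (SE 0.57) narrowly missed the threshold (limma, adjusted p = 0.0505). This was the smallest adjusted p of the 7 members that were not called.

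The remaining members are surface receptors. *Robo4*, an endothelial member of the roundabout receptor family that stabilises vessels, was listed at 0 in both controls and measured 0.27, 5.85, and 2.90 TPM in the sorted libraries. The sorted libraries were all higher, but the 95% interval of the log2 difference ran from -0.07 to 3.46 around 1.69 (SE 0.73, limma adjusted p = 0.0878).

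*Cd93*, a lectin-like transmembrane glycoprotein of endothelial and some myeloid cells, had the highest control level of the 9 genes, at 0.69 and 0.36 TPM. Its sorted values were 0.71, 3.24, and 1.61 TPM. Sorted replicate 1 exceeded the first control by 0.02 TPM, so the groups barely separated. The log2 difference of 0.81 (SE 0.49) did not pass (limma, adjusted p = 0.162), with a 95% interval of -0.38 to 2.01.

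The mean of HaCa4-sorted exceeded that of HaCa4 control in all 9 genes, as it did in 192 of the 290 listed genes (66.2%). Groups did not overlap in 8 of the 9, against 63.1% of listed genes that were higher without overlap. In limma, where a call needed an adjusted p no larger than 0.05 and a log2 difference no smaller than 0.5, 2 of 9 members were called higher, against 15.9% of listed genes, and 6 of 9 had an unadjusted p under 0.05, against 177 of 290. The median log2 difference was 2.21 over the members and 0.74 over the listed genes. The called share was thus near its background, and the larger median of the members is a description with no test. The listed genes are themselves a selection, made by a rule not given in the sources used here, and neither the counts nor their background stand for the whole transcriptome.

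**Figure D2:**
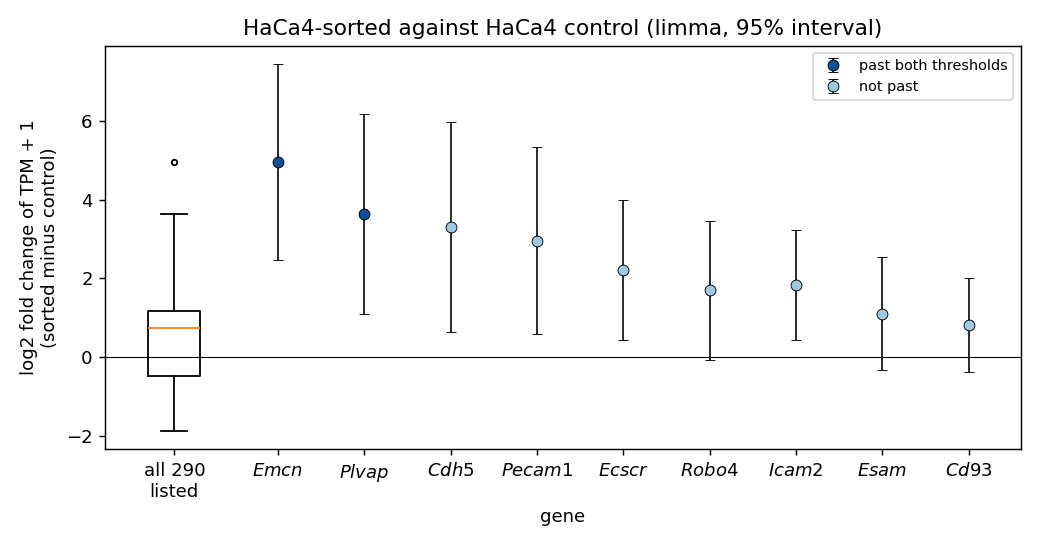
Log2 fold change of TPM + 1 (HaCa4-sorted minus HaCa4 control) for each gene, with the limma 95% interval as bars, beside a box plot of the values of all 290 listed genes (box, quartiles with the median line, whiskers to 1.5 times the box height). *Emcn* at 4.95 and *Plvap* at 3.62 passed both thresholds, and the intervals of *Robo4*, *Esam*, and *Cd93* reach below 0.

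These calls turned on single libraries. Without sorted replicate 1, the lowest, 9 of 9 members were called higher, and 50.3% of listed genes with them. Without sorted replicate 2, the highest, only *Emcn* was called (limma, adjusted p = 0.0281) and *Plvap* was not (limma, adjusted p = 0.0504), while 19.3% of listed genes were called higher. Without sorted replicate 3, without control replicate 1, or without control replicate 2, limma called 0 of 9 (adjusted p from 0.0778 to 0.161 for *Emcn* and from 0.107 to 0.196 for *Plvap*), while 2 of 9 had an unadjusted p under 0.05 in each case. The listed genes lost calls as well, with 0%, 1.03%, and 0% called higher in those 3 settings and 126, 101, and 70 of 290 at an unadjusted p under 0.05. The pseudocount mattered as well, since adding 0.1 TPM in place of 1 gave 7 of 9 members, against 41.4% of listed genes, and adding 5 TPM gave 0 of 9 with 3 at an unadjusted p under 0.05, against 3.79% of listed genes called higher and 152 of 290 at an unadjusted p under 0.05.

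The spread between sorted libraries had the same order in every member. Sorted replicate 2 was highest, replicate 3 intermediate, and replicate 1 lowest in 9 of 9 genes, an order found in 121 of all 290 listed genes (41.7%). The level in replicate 2 was 26.8 times that in replicate 1 for *Cdh5*, 21.7 times for *Robo4*, 19.8 times for *Plvap*, and 18.8 times for *Pecam1*. For *Emcn* the ratio was 15.2, for *Esam* 10.4, for *Ecscr* 8.67, for *Icam2* 6.06, and for *Cd93* 4.56. The smallest ratio belonged to *Cd93*, the member with the highest control level, and *Icam2* had the next smallest although it was listed at 0 in both controls. After the mean control TPM was subtracted, the ratio became 24.0 for *Esam* and 14.7 for *Cd93*. In these genes sorted replicate 1 (0.38 and 0.71 TPM) was at or near control replicate 1 (0.38 and 0.69 TPM). Both ratios thus rest on a small remainder and are imprecise. Between replicates 2 and 3 the ratios were closer together, from 1.59 in *Ecscr* to 2.60 in *Plvap*.

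In most listed genes with appreciable control expression the sorted libraries were closer together. Among the 174 other listed genes at 1 TPM or more in both controls, the median ratio of sorted replicate 2 to replicate 1 was 0.94 (quartiles 0.736 and 1.12), and 30 (17.2%) had the order seen in the members. The ratios of 3 of the 174, *Ctla2a*, *Eng*, and *Mest*, named after their values were seen, lay within the range of the members. Among the 90 other listed genes under 0.5 TPM in both controls, the median ratio was 11.6, beside 15.2 over the members, and 78 (86.7%) had that order. The ratios are a description of these libraries, since all genes of a library share its cells and its depth, and no test was made of them.

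**Figure D3:**
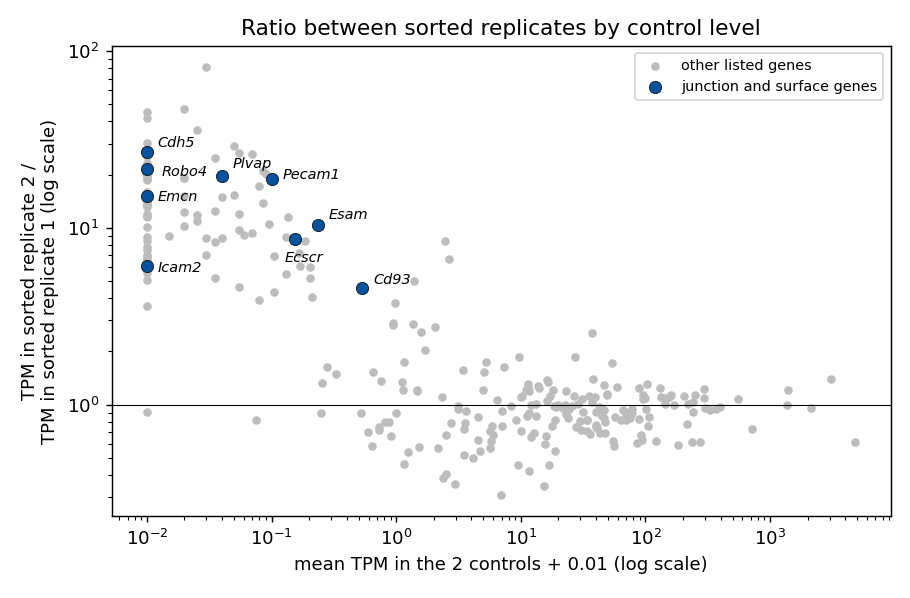
Ratio of the TPM in HaCa4-sorted replicate 2 to that in replicate 1 for each listed gene (vertical, log scale), against its mean TPM in the 2 HaCa4 controls plus 0.01 (horizontal, log scale). The 9 junction and surface genes, labelled, lie between ratios of 4.56 and 26.8 at the low end of control expression, whereas genes at 1 TPM or more in both controls have a median ratio of 0.94.

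Although the sum varied, some of the leading members kept similar proportions. *Emcn* made up 44.8%, 43.9%, and 43.5% of the summed TPM of the 9 genes in sorted replicates 1, 2, and 3. *Plvap* made up 14.6%, 18.5%, and 16.3%, and *Pecam1* 9.27%, 11.2%, and 9.89%. *Emcn*, *Plvap*, and *Ecscr* held the first, the second, and the fifth place in each sorted library.

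Other members, *Cdh5* among the leading ones included, shifted more in share. The share of *Cdh5*, the third by mean level, was 7.97% in sorted replicate 1 and 13.7% and 14.5% in replicates 2 and 3, and *Cdh5* and *Pecam1* exchanged the third and the fourth place. *Cd93* made up 5.10% in replicate 1 and 1.5% and 1.7% in replicates 2 and 3, and *Icam2* made up 5.89%, 2.30%, and 3.27%. In the controls the mixture was another one, with *Cd93* at 46% and 67.9% and *Esam* at 25.3% and 13.2% of a sum of no more than 1.5 TPM. By mean level in HaCa4-sorted, *Robo4* (3.01 ± 2.79 TPM), *Icam2* (2.96 ± 2.08), *Esam* (1.97 ± 1.82), and *Cd93* (1.85 ± 1.28) were neighbours (SD, n = 3). Their means lay closer together than the spread between libraries. That spread does not compare genes within a library, and *Icam2* was above *Esam* and *Cd93* in each sorted library. The standard deviation of every member was between 69.2% and 101% of its mean.

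**Figure D4:**
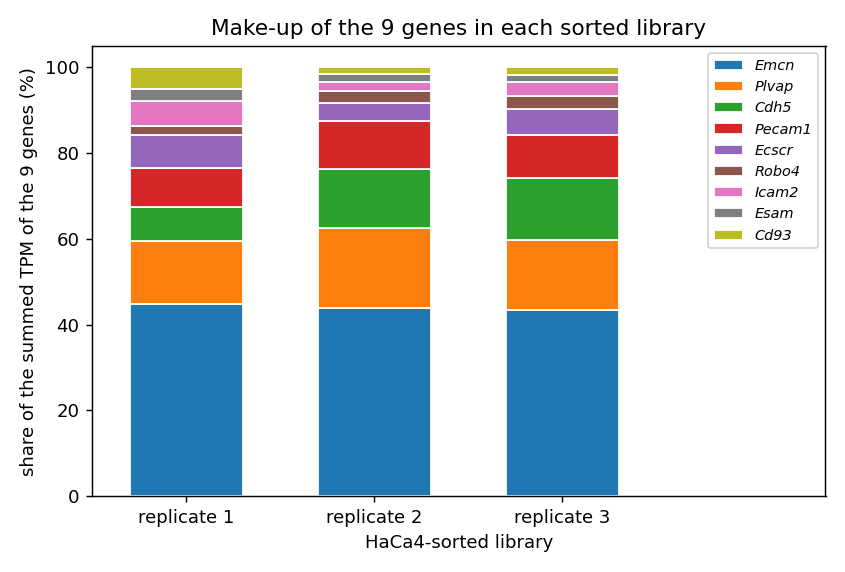
Share of the summed TPM of the 9 genes (vertical, %) taken by each gene in HaCa4-sorted replicates 1, 2, and 3 (stacked bars that add to 100%). *Emcn* takes 44.8%, 43.9%, and 43.5%, and *Cd93* and *Icam2* take a larger share in replicate 1 than in the others.

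Genes with a like profile were sought among the 222 other listed genes that summed to at least 5 TPM over the HaCa4 libraries, by the distance between each gene's shares of its own total over the 5 libraries and the median shares of the members (0%, 0%, 4.38%, 64.9%, and 29.0%). The nearest 8 were *Myct1*, *Erg*, *Gvin1*, *S1pr1*, *Nid1*, *Gm4070*, *Gm29779*, and *Adcy4*, at distances of 0.0235 to 0.0705, where the median over the candidates was 1.03. *Myct1*, a membrane protein gene, measured 0.46, 7.34, and 3.39 TPM in the sorted libraries and was at 0 in both controls. *Erg*, an ETS-family transcription factor of endothelium, measured 0.22, 4.30, and 2.02 TPM and was also at 0 in both controls.

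*S1pr1*, the receptor for sphingosine-1-phosphate in endothelial and lymphoid cells, held 0.11 and 0.04 TPM in HaCa4 control against 0.79, 16.6, and 7.75 TPM in HaCa4-sorted. *Nid1* encodes a basement membrane protein, *Adcy4* an adenylyl cyclase, and *Gvin1* a large interferon-inducible GTPase of a multigene family whose reads could be split among copies. In limma none of the 8 passed the thresholds (adjusted p from 0.0569 to 0.115), against 15.9% of listed genes called higher. An unadjusted p under 0.05 was found in 6 of the 8, against 177 of 290 listed genes. These 8 were chosen for their likeness, which is a description of 5 libraries.

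Markers of endothelium outside the 9 genes were examined as a list of 61, of which 19 were among the listed HaCa4 genes. Of these, 18 had a higher mean in HaCa4-sorted, against 66.2% of all listed genes. In 16 the groups did not overlap, against 63.1% of listed genes that were higher without overlap. Their median log2 difference was 1.20, against 0.74 over the listed genes. In limma 1 of the 19 was called higher, against 15.9% of listed genes, and 6 had an unadjusted p under 0.05, against 177 of 290. *Ctla2a*, at 2.75 and 2.17 TPM in HaCa4 control, rose to 8.62, 72.6, and 31.3 TPM in HaCa4-sorted (log2 difference 3.04, limma adjusted p = 0.0386), and *Palmd* fell (log2 difference -1.15, limma adjusted p = 0.0424). The summed level of the 19 genes was 16.8 and 18.3 TPM in HaCa4 control. It was 21.8, 177, and 83.0 TPM in HaCa4-sorted, the library order of the 9 genes. *Palmd* alone held 9.71 and 12.3 TPM of the control sums, and *Ctla2a* was a large part of those in sorted replicates 2 and 3. Beside *Cdh5* and *Pecam1*, the defining endothelial receptor *Kdr* measured 0.05 and 0 TPM against 0.15, 1.87, and 1.16 TPM, and *Tie1* measured 0.23 and 0.12 TPM against 0.67, 5.68, and 2.21 TPM. *Tek* was not analysed here. The order of the sorted libraries seen in the 9 genes was found in 18 of these 19, with *Palmd* the exception, and their part in the result was not tested.

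Of 42 keratinocyte markers, 4 were listed. *Krt8*, a simple-epithelial keratin at 284 and 380 TPM in HaCa4 control, fell to 220, 205, and 238 TPM in HaCa4-sorted (log2 difference -0.57, limma adjusted p = 0.0391), *Krt6b* fell (-1.87, limma adjusted p = 0.0366), *Krt19* rose (0.97, limma adjusted p = 0.0441), and *Dsg3* was not called (limma, adjusted p = 0.0899). Their sum was 321 and 410 TPM without co-culture and 247, 233, and 276 TPM in HaCa4-sorted. The defining markers *Krt5*, *Krt14*, *Trp63*, *Cdh1*, and *Epcam* were not analysed here. In these libraries the epithelial label therefore rests on the listed keratins and *Dsg3*. The study itself stained HaCa4 cells for K5, the protein of *Krt5*. None of 17 haematopoietic markers was listed.

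**Figure D5:**
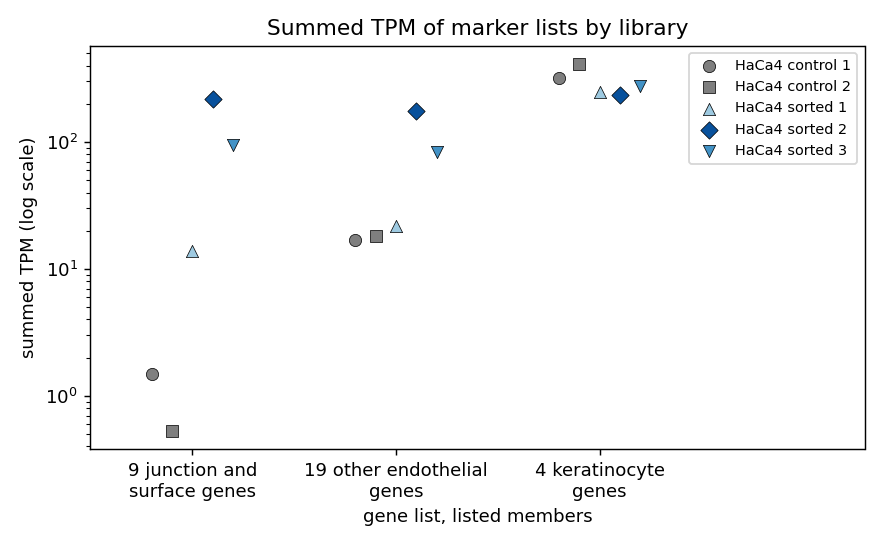
Summed TPM (log scale) of the 9 junction and surface genes, of 19 other endothelial genes, and of 4 keratinocyte genes in each HaCa4 library, 1 point for each library. The endothelial sums are highest in sorted replicate 2 and lowest of the sorted libraries in replicate 1, and the keratinocyte sum lies between 233 and 410 TPM in all 5.

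Partners of the same junctions were covered by a list of 41 genes, with 4 listed. *Jam2*, a junctional adhesion molecule of endothelial and other cells, moved against the 9 genes. Its level was 46.7 and 46.1 TPM without co-culture and 23.4, 21.9, and 28.4 TPM after it, and it fell by 0.90 on the log2 scale (SE 0.16, limma adjusted p = 0.0308). *Ptprb* encodes the phosphatase that acts on VE-cadherin, and *Thy1* a glycoprotein bound by leukocyte integrins. *Kdr*, *Ptprb*, and *Thy1* had no overlap between the groups, with HaCa4-sorted higher, but were not called. Of all listed genes, 63.1% were likewise higher without overlap. *Kdr* and *Ptprb* were already counted among the other endothelial markers above, so they are not separate evidence. *Thy1* was listed at 0 without co-culture and held 0.34, 4.58, and 2.53 TPM after it (limma, adjusted p = 0.0794).

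Of 18 genes for leukocyte adhesion and its chemokines, 5 were listed, and 1 was called higher and 1 called lower. Of all 290 listed genes, 46 were called higher and 41 lower. *Selp* encodes P-selectin, an adhesion receptor that binds leukocytes. It rose from 8 and 4 TPM to 21.5, 14.5, and 14.4 TPM (log2 difference 1.38, limma adjusted p = 0.0386). Sorted replicate 1 was the highest library for *Selp*, unlike for the 9 genes. *Cx3cl1*, a membrane-bound chemokine, fell by 0.97 on the log2 scale (limma, adjusted p = 0.0308). *Icam1*, the inducible relative of *Icam2*, held 0.14 and 0.1 TPM in HaCa4 control against 0.82, 7.27, and 3.46 TPM in HaCa4-sorted, in the order of the 9 genes, and was not called (limma, adjusted p = 0.0621). The study, with another test, reported *Icam1* and *Kdr* as upregulated in co-cultured HaCa4 cells. It also found *Icam1* elevated there by quantitative PCR.

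In the RefSeq annotation of GRCm38.p6 the 9 genes lie on 6 chromosomes. *Cdh5* (104101613 to 104144504) and *Plvap* (71497753 to 71511806) lie on chromosome 8, 32.6 Mb apart. *Pecam1* (106654213 to 106715281) and *Icam2* (106377656 to 106388139) lie 266 kb apart on chromosome 11, and *Robo4* (37401902 to 37414023) and *Esam* (37528089 to 37538319) lie 114 kb apart on chromosome 9. *Emcn* lies on chromosome 3 (137341062 to 137431069), *Cd93* on chromosome 2 (148436651 to 148443535), and *Ecscr* on chromosome 18 (35713086 to 35722413). Of the neighbouring pairs, *Pecam1* and *Icam2* had replicate 2 to replicate 1 ratios of 18.8 and 6.06, and *Robo4* and *Esam* had ratios of 21.7 and 10.4.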

How the data were processed

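RNA of 11 libraries was sequenced on the BGISEQ platform, and the comparisons rest on the 5 HaCa4 libraries, with the LEC libraries used for genes listed in both lines. Reads were filtered with SOAPnuke and mapped by the authors with HISAT2 2.0.4 against GRCm38.p6, and DESeq2 was their test. They deposited, for a selected set of genes, the TPM of each library to 2 decimals, and the authors pooled no replicates. The tool that gave TPM and the rule of selection are not given in the sources used here. As many genes are listed for LECs as the study called deregulated there, while the number for HaCa4 differs from the study's, so the lists may have been chosen on these same comparisons. TPM keeps no read numbers, so depth is unknown and precision rests on the replicates. The second HaCa4 control is replicate 2 in its label, although its values carry the number 3.

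HaCa4-sorted (n = 3) was compared with HaCa4 control (n = 2) by limma 3.58.1 in R 4.3.3, fitted to log2(TPM + 1) with a trended empirical Bayes prior and no rescaling. The fit covered all 290 listed genes, with two-sided tests and Benjamini-Hochberg adjustment over them. A call needed an adjusted p no larger than 0.05 and a log2 difference of 0.5 or more in size. This scale understates the change of low genes. All 9 genes passed into the fit, since it had no filter on low values. Genes of both lines were compared by an interaction term over 11 libraries. The HaCa4 fit was tested on simulated data with known changes. The simulated starting levels were all above those of the 9 genes in the controls, so that test does not cover genes at such low levels. The members, gene lists, and tests were chosen with earlier results of these data known. Named genes were the 9 members, the 8 nearest in profile, and from each list its defining markers and the 4 listed genes of highest mean TPM. Genes were matched by Entrez ID to RefSeq. Alternatives were pseudocounts of 0.1 and 5, minimum mean TPM of 1 or 10, scaling to the same median, no trend, a replicate block, a log2 threshold of 1, and leaving out each library. Tables and plots used Python 3.11.15, pandas 2.3.3, numpy 2.4.6, and matplotlib 3.10.9.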

Additional observations from a re-analysis of the deposited data

Results flagged for a closer look

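Of the 23 genes listed for both cell lines, none is among the 9 junction and surface genes, but 2 of the markers set beside them differed in their response between the lines. The difference was tested in limma as an interaction between cell line and co-culture across the 11 libraries. All of the 23 but *Akr1b3*, *Fosl2*, *Selp*, and *Slco4a1* had an adjusted p under 0.05. Such a difference was thus common among the shared genes. *Selp*, also set beside the 9 genes, had a LEC minus HaCa4 difference of 0.64 (SE 0.56, limma adjusted p = 0.302). *Kdr*, a defining endothelial receptor, was higher in HaCa4-sorted than in HaCa4 control by 0.91 on the log2 scale and lower in LEC-sorted than in LEC control by 0.59, a LEC minus HaCa4 difference of -1.50 (SE 0.46, adjusted p = 0.0103). In LEC controls *Kdr* measured 147, 172, and 137 TPM and in LEC-sorted 88.5, 97.4, and 117 TPM, against at most 1.87 TPM in any HaCa4 library. The *Kdr* change was not called in the HaCa4 fit (limma, adjusted p = 0.118). *Krt8* was lower in HaCa4-sorted by 0.57 and higher in LEC-sorted by 0.95, a difference of 1.52 (SE 0.47, adjusted p = 0.0103). It was listed at 0 in the 3 LEC controls and measured 0.19, 2.19, and 0.89 TPM in LEC-sorted replicates 1, 2, and 3. Each line's marker was thus at a low level in the other line's sorted libraries, and the reason was not tested.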

How the results depend on the processing

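Each of the 9 genes had a positive log2 difference in every setting that tested it (a minimum mean of 10 TPM kept only *Emcn* and *Plvap*), including scaling to the same median, which shifted the listed genes by a median of -0.72. The groups did not overlap in 8 of the 9, so most settings could not change the sign. The sign was not reversed in any of 416 values of 35 other named genes either. The median summed TPM of the 9 genes in HaCa4-sorted was 94.9 and ranged from 54.4 to 156 when 1 library was left out. The number of members past the thresholds, 2, moved to 7 with a pseudocount of 0.1, 0 with a pseudocount of 5, 6 with a minimum mean of 1 TPM, 7 after scaling, and 0 in limma without the trend (6 at an unadjusted p under 0.05). Of the listed genes, 87 passed (46 higher, 41 lower), against 177, 33, 120, 140 (46 higher, 94 lower), and 0 (161 at an unadjusted p under 0.05) in those settings, and 39 with a log2 threshold of 1. With a replicate block by label numbers, 5 members and 115 listed genes passed, and with a replicate block in which the second control was numbered 3, 0 members (4 at an unadjusted p under 0.05) and 22 genes. Only 2 pairs share a number and nothing says that numbers mark shared cultures, so the libraries share only a number. Leaving out 1 library gave 0 to 9 members and 0 to 194 listed genes. Without a control the remaining one is assumed to vary like the sorted group. The cause of these shifts was not tested. Depth is unknown and limits what can be said of genes under 1 TPM.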
